A study of Mus musculus with 12 samples.

Results

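The 10 genes described here encode integrin subunits of leukocytes: Itgam, Itgax, Itgal and Itgb2 of the beta2 family, and Itgb1, Itga4, Itga6, Itga9, Itgav and Itgb5. They were chosen by name and found through their Entrez gene numbers among the 36528 gene numbers of each deposited table. RNA was sequenced from Cd11b+ myeloid cells of the brain of male mice aged 6 months. Of the 12 libraries, 6 came from mice with the genotype hMAPT-P301S (P301S), a human tau transgene carrying a mutation known from inherited frontotemporal dementia, and 6 from non-transgenic littermates (NonTg). The sources used here give neither the promoter that drives the transgene nor the number of animals behind a library. A p-value therefore reflects library-to-library spread, which may be technical. The comparison asks how the brain's myeloid cells differ between the genotypes.

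Integrins are adhesion receptors built from an alpha and a beta subunit, and only the assembled pair reaches the cell surface. The beta2 family is restricted to leukocytes: Itgb2 encodes the shared beta chain (Cd18), and Itgam (Cd11b), Itgax (Cd11c) and Itgal (Cd11a) encode alpha chains that pair with it. Itgam and Itgax pairs are complement receptors that bind the fragment iC3b, and the Itgam pair takes part in phagocytosis and in complement-dependent removal of synapses by microglia. The beta1 chain pairs with many alpha chains, among them those of Itga4, Itga6 and Itga9, and the alpha V chain of Itgav pairs with several beta chains, the product of Itgb5 among them. Cd11b is the protein on which these cells were sorted, and Cd11c is a known surface marker of activated microglia.

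The libraries held 1196069 to 4145069 counts of uniquely aligned reads. Mitochondrial genes took 15.5% ± 3.36 of the counts in NonTg and 25.0% ± 6.91 in P301S, and Malat1, an abundant nuclear RNA, 14.7% ± 2.39 and 9.51% ± 1.04, the latter without overlap (SD, n = 6 each). The 12 markers of homeostatic microglia were all detected. Their summed level was 12172 ± 1425 CPM (counts scaled to library size) in NonTg and 6378 ± 1008 CPM in P301S, without overlap. In the test used below, 6 of the 12 were lower and 6 did not pass. The largest falls in CPM were those of Siglech (3105 to 982 CPM) and Cx3cr1 (3077 to 1300 CPM). Fcrls stood at 331 and 360 CPM, with overlapping ranges. Summed over each list, 10 border macrophage markers reached at most 74.9 CPM in a library, 11 T cell markers at most 40.6 CPM and 8 natural killer cell markers at most 21.9 CPM. The neutrophil list without Csf3r, a gene that alone measured 601 CPM in NonTg and 837 CPM in P301S, reached at most 87.6 CPM in NonTg and 28.5 CPM in P301S. The 12 monocyte markers summed to at most 94.9 CPM except in NonTg 2, where they reached 336 CPM, 285 CPM of it from Fn1. Without Fn1 the list reached at most 84.4 CPM in any library, and the marker Ly6c2 had 1 count in all libraries together. Markers of brain cells were present in every library, with sums of up to 851 CPM for 8 astrocyte, 494 CPM for 8 oligodendrocyte and 265 CPM for 8 neuron markers, and the groups overlapped in each sum. Single markers did move with the genotype. The astrocyte marker Gfap rose from 3.14 ± 2.23 to 19.8 ± 4.37 CPM. The endothelial marker Flt1 rose from 4.30 ± 3.52 to 34.2 ± 22.6 CPM (SD, n = 6 each), both without overlap. The 10 endothelial markers summed to 45.9 ± 44.7 CPM in NonTg and 52.9 ± 16.5 CPM in P301S, with overlapping ranges. Of the 3 endothelial markers tested below, Flt1 was the 1 that passed, and their median log2 fold change was -0.92. Cldn5, another endothelial marker, had no count. At low counts, 2 more markers of other cell types did not overlap. The dendritic cell marker Flt3 (66 counts in all libraries) went from 6.24 ± 6.74 to 0.296 ± 0.267 CPM. The border macrophage marker Colec12 (89 counts) went from 0.0447 ± 0.110 to 6.37 ± 7.21 CPM. The 9 dendritic cell markers summed to 61.4 ± 33.4 CPM in NonTg and 40.6 ± 30.6 CPM in P301S, with overlapping ranges. The part of these cell types in the results below was not tested. In RNA from a sorted population, fewer cells of a type and less RNA per cell cannot be told apart.

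In P301S the transcript of Itgax was higher by a log2 fold change of 4.88 ± 0.41 (SE), while those of Itga9 (-1.27 ± 0.30) and Itgam (-0.58 ± 0.15) were lower, with adjusted p-values of 1.21e-08, 0.0130 and 0.0264 in edgeR's quasi-likelihood test. Of the 10 members 9 passed the filter on low counts, 1 rose, 2 fell and 6 did not pass the threshold of 0.05. Over all 10022 genes tested, 2.37% rose and 1.5% fell. For 2 members, Itgax and Itgb2, all P301S values exceeded all NonTg values, and for 2, Itgam and Itga9, all were below, where 2.24% and 1.05% of all tested genes did so. The median log2 fold change was 0.02 over the 9 tested members and -0.02 over all tested genes.

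**Figure D1:**
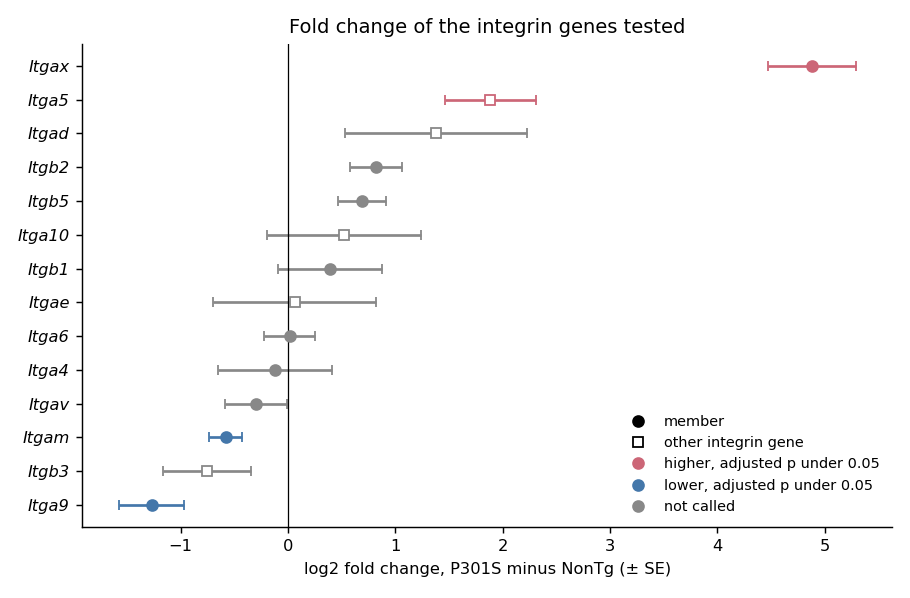
Log2 fold change (P301S minus NonTg, ± SE) of the 14 integrin genes that were tested, with filled circles for the members and open squares for other integrin genes. Itgax lies far to the right at 4.88, Itga5 at 1.88 is the other called increase, and Itgam and Itga9 are the called decreases.

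Per gene length, on the scale of the adjusted RPKM that the authors deposited, Itgam was the most abundant member in both groups, with 89.6 in NonTg and 60.0 in P301S. In NonTg it was followed by Itgb5 (13.1), Itgb2 (8.04), Itga6 (4.94), Itga9 (3.97), Itgav (2.69) and Itgb1 (2.22). Itgax (0.615), Itga4 (0.598) and Itgal (0.127) were lowest there. In P301S Itgax stood at 17.9 and took rank 3 of 10, after Itgb5 (21.2) and before Itgb2 (14.2), whereas Itga9 at 1.65 moved from rank 5 to rank 8. In NonTg the ranges over libraries were apart between Itgam and Itgb5 and between Itgb5 and Itgb2, and every later pair of neighbours in the order overlapped. In P301S they were apart between Itgam and Itgb5 and between Itgb2 and Itga6, so the order of Itgb5, Itgax and Itgb2 there lay within the spread.

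Itgax encodes the alpha chain Cd11c and lies on chromosome 7 from 128129526 to 128150657 of GRCm38 (Entrez 16411). The NonTg libraries ranged from 1.43 to 22.7 CPM with a median of 9.98 CPM. The P301S libraries ranged from 232 to 413 CPM with a median of 326 CPM. Every P301S library lay above every NonTg library, the lowest of them at 232 CPM against a highest NonTg value of 22.7 CPM. The fitted fold was 29.4, from 134 counts in all NonTg libraries to 5705 in P301S. The low group was the uneven one: its coefficient of variation was 73.4%, with a 15.9-fold span, against 19.1% and a 1.78-fold span in P301S. NonTg 4, the lowest, rests on 2 counts, for which the exact Poisson interval at 95% is 0.173 to 5.15 CPM, covering counting error only. The call held in all 23 other settings and omissions of a library, with log2 fold changes of 3.57 to 5.27. The Malat1 and mitochondrial shares given above differed between the same groups, and with these genes left out of the table the log2 fold change of Itgax was 4.87.

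Itgam encodes the alpha chain Cd11b and lies just upstream on the same chromosome, from 128062640 to 128118491 (Entrez 16409). In NonTg it measured 1625 CPM in the lowest library, 1772 at the median and 2351 in the highest. In P301S the values were 1079, 1258 and 1419 CPM. The cells were selected on its protein. The groups did not overlap, and the spread was the smallest among the members, with coefficients of variation of 15.3% and 10.8%. The P301S level was 0.669 of the NonTg level by the fitted fold. The call held in 5 of the 12 omissions of a library, those of NonTg 3, 4 or 5 and P301S 2 or 4 (adjusted p = 0.0294 to 0.0488). It was lost without NonTg 1, 2 or 6 (adjusted p = 0.0855, 0.0518 and 0.0642) and without P301S 1, 3, 5 or 6 (0.0745, 0.0525, 0.0591 and 0.0813), with the log2 fold change between -0.60 and -0.50 in all 12 omissions. It was also lost with no filter on low counts (0.0907) and with a filter at 1 CPM in 6 libraries (0.0599). In GENCODE M21 a further gene model on the same strand, Gm49368, covers 68.7% of the exon bases of Itgam. No gene number was matched to that symbol, but only 85.0% of the gene numbers were matched to any, so the model may still be listed. The sources used here do not say how reads shared by both models were counted.

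The sequences before the starts of these neighbours are shown because the genes changed in opposite directions. They are RefSeq sequences of GRCm38.p6, plus strand, with motif matches in capitals. The Itgam window is chr7:128062390-128062639 and the Itgax window is chr7:128129300-128129525.
Itgam: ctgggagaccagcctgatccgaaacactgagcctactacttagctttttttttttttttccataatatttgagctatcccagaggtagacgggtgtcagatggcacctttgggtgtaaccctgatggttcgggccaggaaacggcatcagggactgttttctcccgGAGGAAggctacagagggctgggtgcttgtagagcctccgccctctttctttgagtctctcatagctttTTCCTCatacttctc
Itgax: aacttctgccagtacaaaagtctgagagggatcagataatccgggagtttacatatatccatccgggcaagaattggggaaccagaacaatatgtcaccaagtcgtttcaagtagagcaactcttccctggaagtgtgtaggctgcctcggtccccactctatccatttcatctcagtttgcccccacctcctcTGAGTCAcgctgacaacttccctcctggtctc
The letters searched, on both strands, were GAGGAA, a core bound by Ets factors such as PU.1, TGANTCA of AP-1 and CACGTG, an E-box bound by MiT/TFE factors. The Itgam window held GAGGAA at 2 places, 1 on each strand, starting 84 and 15 bases before the gene's start, and neither of the other motifs. The Itgax window held TGANTCA once, 32 bases before the start, and neither of the others. Among 32851 promoters of 300 bases in the same table, 28.3% held GAGGAA, 7.81% TGANTCA and 7.15% CACGTG, so the first is common. These promoters span 250 bases before and 50 after the start. The windows shown are shorter, 250 bases for Itgam and 226 for Itgax, and end before the gene's start. Promoters were matched for 7 of the 10 members. GAGGAA was in those of Itgav, Itgam and Itgb1, and TGANTCA in those of Itgax and Itga9, a gene that rose and a gene that fell.

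**Figure D2:**
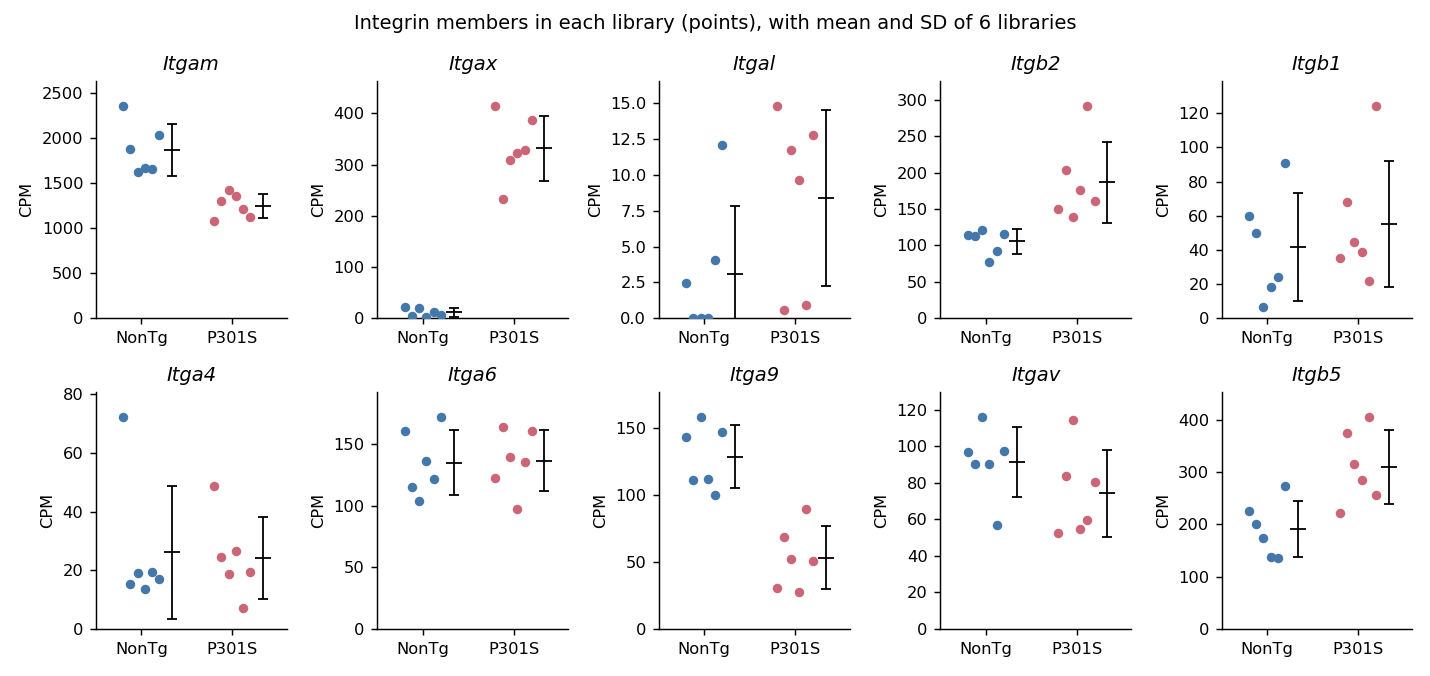
CPM of each of the 10 members (linear axes from 0), with a point for each of 6 NonTg and 6 P301S libraries and the mean ± SD beside them, the bar of Itgal being cut off at 0. The groups are apart in Itgax, Itgam, Itga9 and, narrowly, Itgb2, where the lowest P301S library is at 140 CPM and the highest NonTg library at 121 CPM.

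Itgb2 encodes the beta chain on which the surface level of all 3 alpha chains depends (chromosome 10, 77530329 to 77565708). The NonTg libraries ranged from 77.0 to 121 CPM with a median of 114 CPM. The P301S libraries ranged from 139.7 to 291 CPM with a median of 168 CPM. Each P301S library was above the NonTg range. Its log2 fold change of 0.82 ± 0.24 narrowly missed the threshold (edgeR adjusted p = 0.0531). It passed with DESeq2 (0.0172; 7.4% of all tested genes were called by that tool), with a minimum count of 30 (0.0417) and on the adjusted RPKM plus 1 or plus 0.1 (0.0484 and 0.0483). It did not pass in the other settings, such as library totals (0.108) and voom (0.0714). Nor did it pass in any omission of a library (0.0513 to 0.176). P301S 5 had the highest value, and its omission gave a log2 fold change of 0.66 (0.176).

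Itgal encodes the alpha chain of LFA-1, a receptor for Icam proteins that lymphocytes use widely (chromosome 7, 127296139 to 127335137). It was the only member that did not pass the filter on low counts, with 56 counts in all NonTg libraries and 136 in P301S. NonTg 2, 3 and 4 had no count, which allows up to 1.18, 2.74 and 2.14 CPM, and the others had 2.44, 4.06 and 12.1 CPM. In P301S, 4 libraries lay between 9.68 and 14.8 CPM and P301S 2 and 5 at 0.542 and 0.952 CPM. The ranges overlapped. Itgad, the fourth alpha chain of the family, had a log2 fold change of 1.38 ± 0.85 (edgeR adjusted p = 0.469), with at most 14.9 CPM in NonTg and 3.57 to 38.1 CPM in P301S.

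Ratios within a library do not depend on the scaling between libraries, and are given as a description without a test. Of the summed adjusted RPKM of the 4 alpha chains of the beta2 family, Itgax took 0.669% ± 0.479 in NonTg and 22.8% ± 5.00 in P301S (SD, n = 6 each), without overlap. Itgam took 98.9% ± 0.497 and 75.9% ± 5.05, so it remained the main alpha chain transcript in every library, at 69.0% in the lowest. The sum itself was 90.6 ± 13.7 in NonTg and 79.0 ± 5.73 in P301S, with overlapping ranges. The ratio of the summed alpha chains to Itgb2 was 11.4 ± 1.81 in NonTg and 5.91 ± 1.57 in P301S, from 8.63 to 13.7 and from 3.44 to 8.03, without overlap. In every library the alpha chain transcripts exceeded that of their beta chain on this scale. The ratio of Itgb5 to Itgav was 4.95 ± 1.20 in NonTg and 10.3 ± 3.38 in P301S, and its ranges touched, with NonTg 6 at 6.51 and P301S 3 at 6.41. The ratio of Itga4, Itga6, Itga9 and Itgav together to Itgb1 spanned 2.90 to 36.6 in NonTg and 1.55 to 8.36 in P301S, and that of Itgb2 to Itgb1 1.81 to 26.8 and 1.85 to 19.2, so neither separated the groups.

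**Figure D3:**
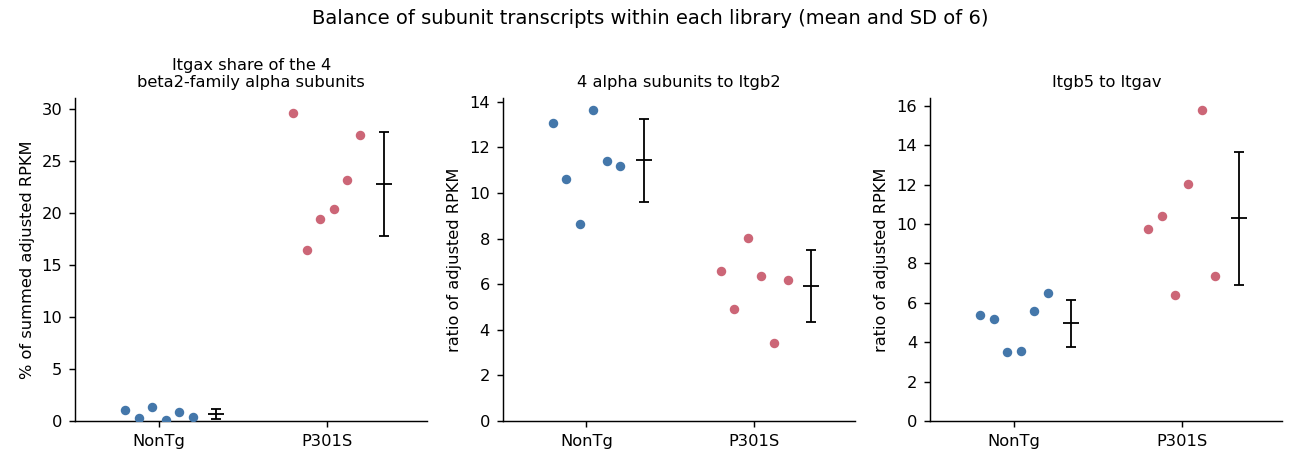
Subunit balance in each library on the adjusted RPKM scale (points, with mean ± SD of 6), as the percentage of Itgax among the 4 alpha chains of the beta2 family, the ratio of these chains to Itgb2, and the ratio of Itgb5 to Itgav. The Itgax share lies between 16.5% and 29.6% in P301S and at 1.30% or less in NonTg.

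Itgam, Itgax and Itgad lie side by side on chromosome 7, with 11.035 kb between the end of Itgam and the start of Itgax. Among 22 protein-coding genes whose start lies within 250 kb of the span from Itgam to Itgax, 18 were tested. Itgax was the 1 that rose and Itgam the 1 that fell, and these are the genes that define the window. None of the other tested genes in it passed the threshold, where 3.87% of all tested genes did. The others included Pycard, which encodes the inflammasome adaptor ASC (0.19 ± 0.59), and Rgs10, a regulator of G protein signalling (-0.20 ± 0.25), neither of them past the threshold. Cox6a2, a respiratory chain subunit gene beyond Itgad, was not tested because of low counts but lay at 1.08 to 10.8 CPM in P301S and at most 0.406 CPM in NonTg.

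**Figure D4:**
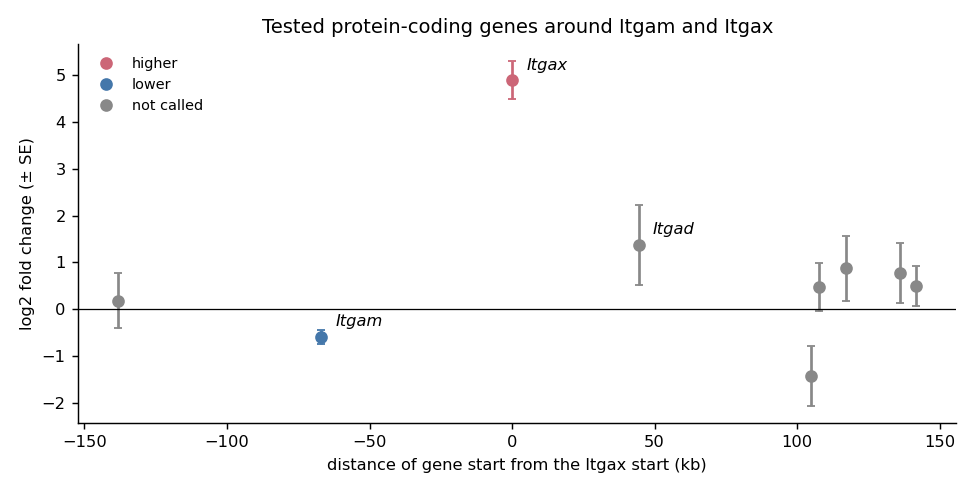
Log2 fold change (± SE) of the 9 tested protein-coding genes that start within 150 kb of the start of Itgax, against the distance between the starts in kb. Itgax at 4.88 stands above all others, and Itgam at -0.58 is the called decrease.

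Among the alpha chains that pair with beta1, Itga9 fell. Its product binds Vcam1, tenascin C and osteopontin (chromosome 9, 118606709 to 118901003). In NonTg it measured 99.8 CPM in the lowest library, 128 at the median and 158 in the highest. In P301S the values were 27.8, 51.5 and 89.5 CPM. All P301S libraries were below all NonTg libraries, and the P301S level was 0.415 of the NonTg level. The call held in all 23 other settings and omissions, with log2 fold changes of -1.47 to -0.94 and a highest adjusted p of 0.0473 without P301S 1. The summed level of homeostatic microglia markers was lower in the same libraries, with 6 of the 12 markers called lower. The part of these markers in this result and in those of Itgam and Itgax was not tested.

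Itgb1, the beta chain of these receptors (chromosome 8, 128685654 to 128733579), varied more between libraries than between groups. The NonTg libraries ranged from 6.40 to 91.0 CPM with a median of 37.1 CPM. The P301S libraries ranged from 21.6 to 124 CPM with a median of 41.5 CPM. The ranges overlapped, with NonTg 3 and 4 below every P301S library and P301S 6 above every NonTg library. The lowest value, in NonTg 3, rests on 7 counts (exact Poisson interval at 95% 2.57 to 13.2 CPM), and the highest, in P301S 6, on 456. The log2 fold change was 0.39 ± 0.49 (edgeR adjusted p = 0.786), and -0.016 without P301S 6.

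Itga6, a laminin receptor chain (chromosome 2, 71786886 to 71858427), had the log2 fold change nearest to 0 among the tested members. In NonTg it measured 104 CPM in the lowest library, 129 at the median and 172 in the highest. In P301S the values were 97.5, 138 and 164 CPM. The ranges overlapped over most of their length, the means were 135 ± 26.6 and 137 ± 24.8 CPM (SD, n = 6 each), and the log2 fold change was 0.02 ± 0.24 (edgeR adjusted p = 0.985).

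Itga4, whose product binds Vcam1 and fibronectin and guides leukocytes into tissue (chromosome 2, 79255426 to 79333114), measured 15.3 to 19.5 CPM in 4 NonTg libraries, 13.5 CPM in NonTg 4 and 72.2 CPM in NonTg 1. In P301S the lowest, median and highest values were 6.98, 21.9 and 48.9 CPM. The groups overlapped, and NonTg 1 stood far above the rest of its group. The log2 fold change was -0.12 ± 0.53 (edgeR adjusted p = 0.951), and 0.52 (0.727) without NonTg 1. In NonTg 1 the 9 dendritic cell markers summed to 123 CPM, of which Zbtb46 alone made up 88.1 CPM, against 33.3 to 76.3 CPM in the other NonTg libraries. P301S 5 had the highest sum of its group, 85.6 CPM, and the lowest Itga4. Among the other leukocyte lists in NonTg 1, border macrophage markers (11.8 CPM) and T cell markers (2.84 CPM) had their lowest NonTg sums. Natural killer cell markers had no count there, and monocyte markers summed to 56.4 CPM. The part of these markers in the result was not tested. Exons of Cerkl on the other strand overlap 8.04% of the exon bases of Itga4 in GENCODE M21. Without strand information, which the sources used here do not give, reads of that stretch cannot be told apart.

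Itga5, the fibronectin receptor chain, was not a member. Of the 18 other integrin genes 5 were tested, and Itga5 was the 1 that rose (20% called, against 3.87% of all tested genes). It measured 28.4 CPM at most in NonTg and 34.2 CPM at least in P301S, with means of 18.4 ± 9.31 and 69.2 ± 29.3 CPM (SD, n = 6 each). Its log2 fold change was 1.88 ± 0.42 (edgeR adjusted p = 0.00797). The call held in all 23 other settings and omissions, with a highest adjusted p of 0.0399. Of the alpha chains named so far as partners of beta1, Itga9 fell and Itga4 and Itga6 did not pass, whereas Itga5 rose. Itga10 and Itgav, given below, did not pass either, and 13 of the 18 other integrin genes were not tested.

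Itgav encodes the alpha V chain, which recognises the RGD sequence of matrix proteins such as osteopontin and activates latent TGF-beta (chromosome 2, 83722303 to 83806917). The NonTg libraries ranged from 56.8 to 116 CPM with a median of 93.8 CPM. The P301S libraries ranged from 52.7 to 115 CPM with a median of 70.1 CPM. The P301S libraries included 3 below 60 CPM against 1 in NonTg, but the ranges overlapped, and -0.30 ± 0.29 in log2 did not pass (edgeR adjusted p = 0.707). A non-coding gene on the other strand, Gm13684, overlaps 5.90% of its exon bases.

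Itgb5 encodes a beta chain that pairs with alpha V in the uptake of apoptotic cells and is known as a marker of microglia (chromosome 16, 33829665 to 33949338). In NonTg it measured 136 CPM in the lowest library, 188 at the median and 273 in the highest. In P301S the values were 221, 300.0 and 405 CPM. The P301S libraries were higher on the whole, but 2 of them lay below the highest NonTg library. The difference, 0.69 ± 0.22 in log2, did not pass (edgeR adjusted p = 0.0847), and it did not pass in any other setting or omission (lowest adjusted p 0.0508, with DESeq2).

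Itgb3, another partner of alpha V, had 45.4 ± 18.8 CPM in NonTg and 26.8 ± 8.78 CPM in P301S (SD, n = 6 each), a difference of -0.75 ± 0.41 in log2, which missed the threshold (edgeR adjusted p = 0.393). Itgb8, the beta chain of the main activator of latent TGF-beta in the brain, was too low to be tested, with 12 counts in NonTg and 66 in P301S. Scaled to library size, these were 1.18 ± 1.52 and 3.64 ± 1.61 CPM, with overlapping ranges. Itgae, known from intraepithelial T cells and dendritic cells, and Itga10, a collagen receptor chain, also did not pass, with log2 fold changes of 0.06 ± 0.76 and 0.52 ± 0.72. The remaining genes of the family fell under the filter. In all, 13 of the 18 other integrin genes were not tested, with 2 to 243 counts over the 12 libraries.

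**Figure D5:**
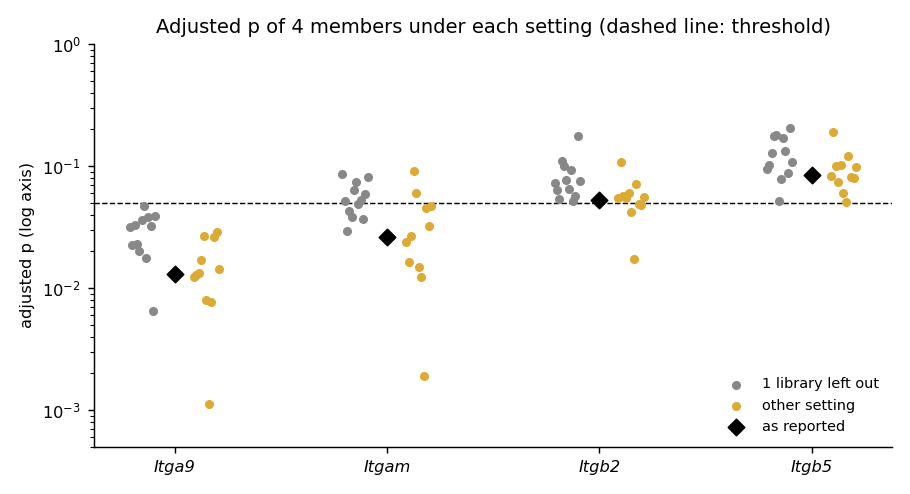
Adjusted p (log axis) of 4 members as reported (diamonds), with 1 library left out (grey) and under the 11 other settings (yellow), with the threshold of 0.05 dashed. All points of Itga9 lie below the line, those of Itgam and Itgb2 lie on both sides, and all those of Itgb5 lie above it.

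The proteins that act on integrins from inside the cell were read from a list of 48 genes. Most belong to talin, kindlin, Rap1, focal adhesion and Src-family signalling. Others, among them Plek, Filip1l, Sla, Tyrobp and Plcg2, lie outside these groups, and Plek and Filip1l are among the genes called. The list was chosen with earlier results of these data known, so its share called is only a description. Of 38 tested, 3 rose and 1 fell (10.5% called, against 3.87% of all tested genes), with a median log2 fold change of 0.09. Fgr, a Src-family kinase that acts downstream of beta2 integrins in myeloid cells, rose from 2.44 ± 3.17 to 96.4 ± 34.4 CPM (log2 fold change 5.21 ± 0.59). Fyb, the adaptor ADAP that links immune receptors to integrin activation, rose from 1809 ± 393 to 2842 ± 527 CPM (0.65 ± 0.16), and Plek, the platelet and leukocyte adaptor pleckstrin, from 143 ± 56.5 to 271 ± 33.2 CPM (0.92 ± 0.25). Filip1l, a gene related to a filamin-binding protein, fell from 439 ± 156 to 200.0 ± 91.2 CPM (-1.13 ± 0.28). The calls of Filip1l, Fyb and Plek (edgeR adjusted p = 0.0164, 0.0199 and 0.0376) were lost in 5, 5 and 9 of the 12 omissions of a library (that of Plek also with library totals, 0.0696), with highest adjusted p-values of 0.0671, 0.0681 and 0.0766. The core adaptors of the list, among them talin and kindlin genes, were not among those called.

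Of 44 genes for integrin ligands and counter-receptors 14 were tested, of which 2 rose and none fell (14.3% called), with a median log2 fold change of -0.21. Spp1 encodes osteopontin, a ligand of alpha V, alpha 9 and alpha 4 integrins, and rose from 0.804 ± 0.550 to 275 ± 92.2 CPM (log2 fold change 8.57 ± 0.42). C3, the source of the iC3b fragment bound by the Itgam and Itgax pairs, rose from 1.43 ± 2.60 to 29.99 ± 21.1 CPM (4.22 ± 0.82, edgeR adjusted p = 0.00208). NonTg 2 held 6.67 CPM of C3, and its omission gave a log2 fold change of 6.07. The NonTg levels of Spp1 and C3, like that of Fgr, rest on few counts. Among only those alpha chains that are named here for these ligands, Itgax rose, Itgam and Itga9 fell, and Itgav and Itga4 did not pass.

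Of 20 genes for membrane proteins that associate laterally with integrins 15 were tested, of which 3 rose and none fell (20.0% called), with a median log2 fold change of 0.32. The tetraspanin genes Cd63 and Cd9 both rose. Cd63 went from 8.99 ± 3.63 to 49.97 ± 22.3 CPM, a log2 difference of 2.45 ± 0.46, and Cd9 from 23.3 ± 9.75 to 85.9 ± 23.3 CPM, a log2 difference of 1.90 ± 0.37. Plaur, the urokinase receptor gene, rose from 1.27 ± 1.53 to 12.7 ± 8.08 CPM (3.18 ± 0.85, edgeR adjusted p = 0.0312), with overlapping ranges, and lost its call in 9 of the 12 omissions of a library (highest adjusted p 0.0975) and with a filter at 1 CPM in 6 libraries (0.0596).

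Genes with the most similar pattern were sought among 7862 others with a mean of at least 10 CPM, as the smallest root mean square difference in log2 CPM after each gene was centred on its mean over the 12 libraries. For Itgax these were Fgr (0.638), Rai14 (0.707), a gene for an actin-associated protein, and Axl (0.716), a receptor tyrosine kinase gene of phagocytes. All 3 rose, Axl from 37.7 to 721 CPM. For Itgam they were Ccdc66 (0.140), Zfhx3 (0.158), a transcription factor gene, and Jmjd1c (0.194). Of these Zfhx3 fell (log2 fold change -0.70 ± 0.15, edgeR adjusted p = 0.00559), and Ccdc66 and Jmjd1c did not pass. The 12 libraries share their depth and composition across genes, so these distances are a description. The difference between the groups enters each distance, so a shared direction follows from how these genes were picked.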

How the data were processed

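The authors deposited 1 table for each library. Per the file headers, it gives a count of uniquely aligned reads for every gene model and RPKM adjusted by the authors with size factors. GSNAP and GRCm38 are named in the submitters' processing notes. The sources used here do not name the counting tool, annotation release, size factor method or strandedness. The 2 columns carried the same measurement: their log ratio, after a constant per library, varied by at most 2.49e-14. Only unique reads were counted, so stretches shared with other loci can be undercounted.

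Symbols and coordinates came from RefSeq on GRCm38.p6, matched for 31049 of 36528 gene numbers (85.0%). Unmatched numbers stayed in library sizes and tests. Replicates were numbered in the order of the sample records. No library was merged with another, since chi-square divided by its degrees of freedom was at least 18.2 in the 30 within-group pairs.

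Genes were kept by filterByExpr (minimum count 10) and tested with edgeR 4.0.16 in R 4.3.3 (TMM factors, quasi-likelihood, robust, no covariate), with Benjamini-Hochberg adjustment over 10022 genes and a threshold of 0.05. The fit was tested on simulated data. SE is the size of the log2 difference over √F. CPM use TMM-scaled totals of the kept genes and are given as mean ± SD. The alternatives were DESeq2 1.42.0, limma 3.58.1 (voom, and log2 of adjusted RPKM plus 1 or 0.1), other scalings and filters, the robust option off, Malat1 and mitochondrial genes left out, and omission of each library.

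The members and lists were chosen with earlier results of these data known. Named were the members, up to 6 called genes of each pathway list by smallest p (otherwise 2), the 3 genes most like Itgam and Itgax, and coding genes within 250 kb of that pair. Pycard, Rgs10 and Cox6a2 among the last, and Itgad, Itgb3, Itgb8, Itgae and Itga10, were picked for the text after their values were seen. Human tau reads were not analysed here, so no gene checks the genotype labels. A neighbouring gene is not reported here.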

Additional observations from a re-analysis of the deposited data

Results flagged for a closer look

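Within each group of 6 libraries, the gap between the highest or lowest library and its nearest neighbour was compared with the range of the group, for 10 members and 5 ratios. Of 30 such groups 2 held a library standing apart beyond Dixon's critical value at 95%, where chance gives about 1 in 20. In NonTg, Itga4 in NonTg 1 stood at 6.18 on the log2(CPM + 0.5) scale, against 4.32 in the next library, a gap of 0.786 of the range. It rests on 178 counts (72.2 CPM, exact Poisson interval at 95% 62.0 to 83.7 CPM). In NonTg, Itgav in NonTg 5 stood at 5.84, against 6.50 in the next library, a gap of 0.648 of the range. It rests on 70 counts (56.8 CPM, 44.3 to 71.8 CPM). The intervals cover counting error only.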

How the results depend on the processing

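Fold changes were recomputed under 11 other settings (9 for Plaur, which had no value with a minimum count of 30 or with Malat1 and mitochondrial genes left out) and 12 omissions of a library, and the subunit ratios under 1 other setting and the 12 omissions. The number of members that rose was 1 as reported and 2 (Itgax and Itgb2) with a minimum count of 30, with DESeq2 and on adjusted RPKM plus 1 or plus 0.1, and 1 in every omission. The number that fell was 2 as reported, 1 (Itga9) with no filter and with a filter at 1 CPM in 6 libraries, and 1 to 2 over the omissions. Over all genes, 388 passed as reported, of which 61.3% rose, 742 with DESeq2 and 1063 with no filter, of which 38.7% rose. Of the 6 tested members that did not pass, Itgb2, Itgav and Itgb5 kept their sign throughout, and 3 changed it. Itgb1 turned to -0.016 without P301S 6 (omissions -0.016 to 0.78). Itga4 turned to 0.52 without NonTg 1 and 0.08 without P301S 5 (omissions -0.45 to 0.52). Itga6 turned to -0.032 with library totals and below 0 without NonTg 2, 3 or 5 or P301S 2 or 6 (omissions -0.037 to 0.12). The cause was not tested. The differences in log2 subunit ratio moved by less than 1 SD between libraries under counts in place of RPKM and under every omission, although that of Itgb2 to Itgb1 lay between -0.21 and 0.65. No paired analysis was possible because the labels give no litter, batch or pairing of the libraries. Depth limits Itgal and 13 other integrin genes, which were too low to test.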
